A study of Homo sapiens with 65 samples.

Results

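The late course of cardioids lacking HAS2 was followed from day 4.5 to day 7.5 of differentiation. Cardioids are self-organising heart-like aggregates of human cells, here of the left-ventricular type and grown from WTC-11, a line of induced pluripotent stem cells. HAS2 encodes hyaluronan synthase 2, an enzyme that builds the matrix sugar hyaluronan. The comparison was made of the libraries labelled with the HAS2-KO genotype at these days, 9 of the 65 libraries in the series: 6 at day 4.5 and 3 at day 7.5. Both groups shared the knockout, the cell line and the differentiation protocol; until day 4.5 cardioids were in a patterning medium and afterwards in a cardiomyocyte medium. The 6 libraries of day 4.5 came from clones cl4 (R1, R2 and R3), cl14, cl46 and cl51, while the 3 of day 7.5 came from clones cl4 (R2 and R3) and cl14 only. Each library pooled 8 cardioids, and expression was read by QuantSeq 3′ sequencing, which tags the end of each transcript, and levels are given in CPM, counts scaled to the library total. Wild-type libraries of the same arm (6 at day 4.5, 3 at day 7.5) and untreated libraries of a separate enzyme arm, with wild-type genotype (3 at each day), served for comparison. These groups mix several lines or labels: WT, WT_TU, cl43_WT_UT and TNT2 in the wild type, the last of these and cl43_WT_UT at day 4.5 only, and TNNI1, WT and TNNT2 in the untreated group. The labels describe the cells as cardiac progenitors at day 4.5 and cardiomyocytes at day 7.5.

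As background, heart muscle cells form from mesoderm, and progenitors that still divide assemble sarcomeres, the repeating units of thick myosin and thin actin filaments anchored at Z-discs. Late in this course the cells add structural, calcium-handling and chamber-type genes, while genes for mitosis and DNA replication are generally lowered as cells leave the cell cycle. Hyaluronan fills the matrix of the early heart, where it swells the space between muscle and lining and binds other matrix proteins.

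The 9 libraries held 1404837 to 1969113 counts and had 17250 to 18206 genes detected. Ribosomal protein genes took 4.55 to 4.95% of counts at day 7.5 and 5.95 to 7.54% at day 4.5, and the 10 highest genes took 11.8 to 13.2% against 7.14 to 10.4%. Along the first principal component (44.9% of the variance) the day 7.5 libraries scored 35.0 to 42.4, and the day 4.5 libraries −37.4 to 1.52, with clones cl46 and cl51 furthest from day 7.5. These clones were not sampled at day 7.5, and library numbers fell into blocks: cl4_R1 was alone in the first, cl4_R2 in the second, and the rest in the third. cl4_R3 at day 7.5 and cl14_R1 at day 4.5 were low in a shared set of genes, described at the end. Clone, library block and these libraries therefore accompany the results, and counts that move with them are given with and without them. Nothing in the labels ties a library to its own culture beyond the statement of biological replicates, so p-values measure the spread between these libraries. Because the samples are bulk, fewer cells of a type and less RNA per cell cannot be told apart.

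HAS2 itself (chr8:121612116-121641390, − strand, GRCh38) was read at 286 to 485 CPM (median 319) at day 4.5 and at 271, 294 and 378 CPM in cl4_R2, cl4_R3 and cl14_R1 at day 7.5. The groups overlapped, and the fitted log2 fold change was −0.10 ± 0.33 (SE; edgeR adjusted p 0.951). Which part of the gene was altered is not given in the sources used here, so a tag at the transcript's end does not check the knockout.

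Between day 4.5 and day 7.5, 858 of 13797 genes tested changed (6.22%) by edgeR's quasi-likelihood test at a Benjamini-Hochberg adjusted p under 0.05. Of these, 443 were higher (3.21%) and 415 lower (3.01%) at day 7.5, and 688 changed by at least 1 on the log2 scale (355 higher, 333 lower). The 3 and 6 libraries did not overlap for 780 of the called genes. Among all genes tested, they did not overlap for 2148 (15.6%), and the median log2 fold change was −0.04. Called sarcomere genes all rose, and called mitosis genes all fell. Using only clones cl4 and cl14, present on both days, 438 genes were called (215 higher, 223 lower), and leaving out any 1 of the 3 libraries of day 7.5 lowered the count to 448 to 532. Within the third block alone, with 4 libraries at day 4.5 and 2 at day 7.5, 1643 genes were called, and with the block as a term 1576. With a term for the library name the lower calls rose to 629 and the total to 1223.

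**Figure D1:**
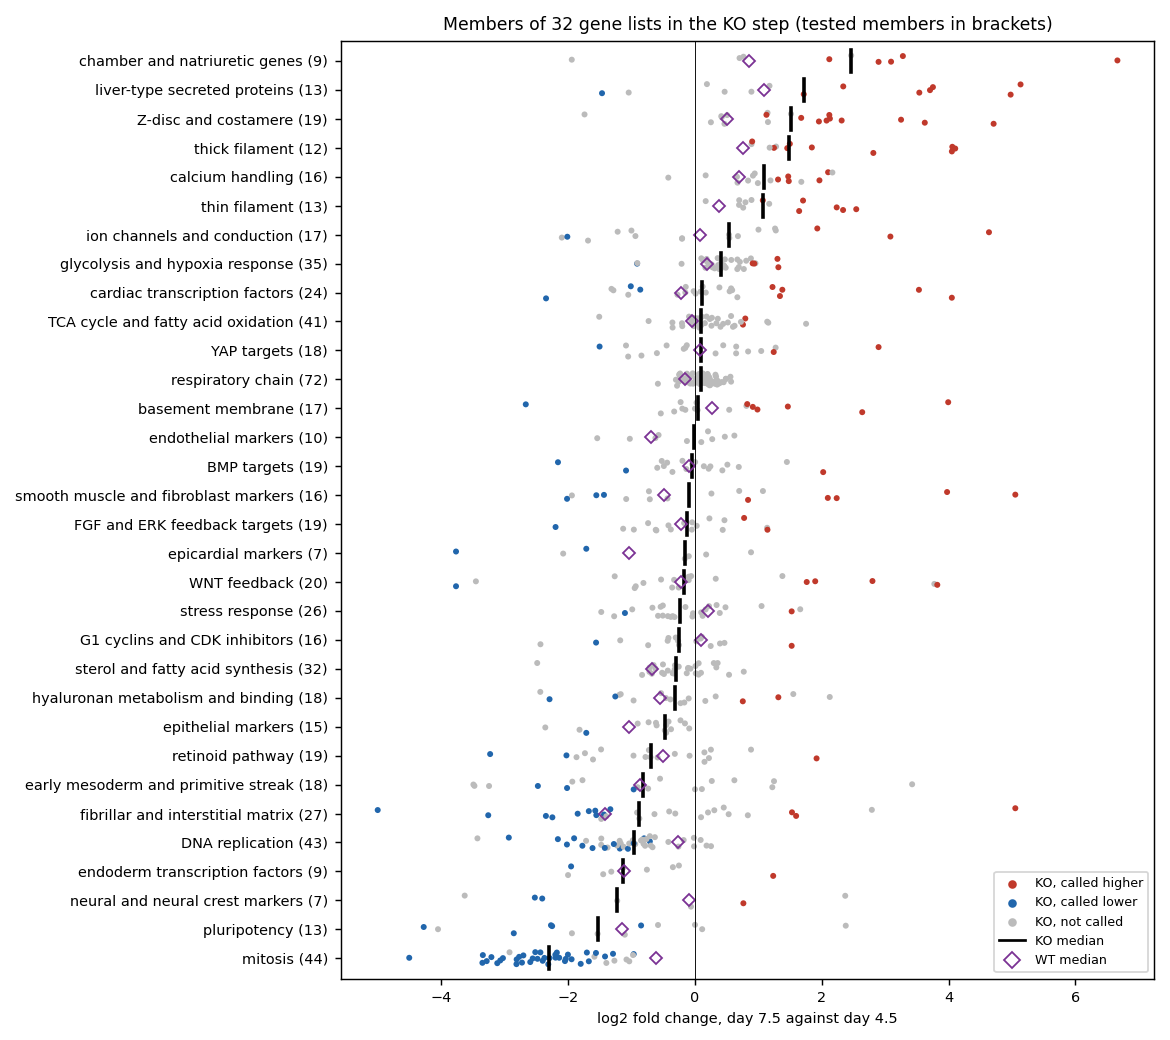
Log2 fold change from day 4.5 to day 7.5 of every tested member of 32 gene lists in HAS2-knockout cardioids (dots; red called higher, blue called lower, grey not called), with the knockout median (black bar) and the wild-type median (purple diamond). The mitosis list stands lowest as a block, with 37 of 44 members called lower, and the medians of the thick-filament, thin-filament and Z-disc lists lie above 0.

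The genes of the thick filament, the myosin-based motor of the sarcomere, moved upward. Of 12 tested members 9 rose and none fell, with a median log2 fold change of 1.48 against −0.04 over all genes. The members' summed level was 13393 to 36079 CPM (median 25644) at day 4.5 and 51958 to 59605 CPM at day 7.5, so the groups did not overlap. Most of this sum was TTN, whose own groups did not overlap but whose change was not called in the main test. TTN held 26981 of the 36079 CPM in cl4_R2 and 11277 of the 13393 CPM in cl51_R1. MYL7, the atrial regulatory light chain (chr7:44138864-44141332, − strand), stood at 789, 545 and 346 CPM in cl4_R1, cl4_R2 and cl4_R3, at 398 CPM in cl14_R1 and at 99.1 and 105 CPM in cl46_R1 and cl51_R1. At day 7.5 it was read at 6162, 6792 and 5593 CPM. Every day 7.5 value was above every day 4.5 value, and the log2 fold change was 4.05 ± 0.47 (edgeR adjusted p 9.76e-08). The window of 150 bases before its RefSeq start (GRCh38.p14, chr7:44141333-44141482, − strand) is shown because it holds a CArG box, the letters bound by serum response factor in many muscle genes, in capitals.

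MYL7: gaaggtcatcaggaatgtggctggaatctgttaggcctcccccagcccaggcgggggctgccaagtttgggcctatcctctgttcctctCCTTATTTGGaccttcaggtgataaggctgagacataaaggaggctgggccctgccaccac

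MYL3, the essential light chain of ventricular and slow muscle (chr3:46857872-46882169, − strand), ranged from 11.6 CPM in cl51_R1 and 14 CPM in cl46_R1 to 281 CPM in cl4_R1 at day 4.5, with a median of 73.7 CPM. It reached 1914, 1861 and 1584 CPM at day 7.5, a log2 fold change of 4.06 ± 0.55 (edgeR adjusted p 3.74e-06). As with MYL7, the lowest day 4.5 values were those of clones cl46 and cl51. MYH7B, a myosin heavy chain of slow and heart muscle, was between 0 and 10.2 CPM (median 3.66) and then at 92.4, 77.1 and 87.6 CPM, with a log2 fold change of 4.11 ± 0.51 (edgeR adjusted p 4.64e-07). The groups did not overlap. MYOM1, which links myosin at the M-band, went from 48.1 to 375 CPM (median 239) to 1328, 1739 and 1221 CPM (log2 fold change 2.81 ± 0.45, edgeR adjusted p 3.32e-05). The heavy chain MYH7 was read at 4.05 to 12.1 CPM (median 9.92) and then at 29.3, 42 and 25.9 CPM, with a log2 fold change of 1.84 ± 0.42 (edgeR adjusted p 0.00908). That call was lost when only clones cl4 and cl14 were compared and when cl4_R3 of day 7.5 was left out.

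The atrial light chain MYL4 was at 389 to 1797 CPM (median 895) and then at 2949, 2691 and 2324 CPM (edgeR adjusted p 0.00915; call lost in 3 alternatives), with no overlap. MYLK3 and MYBPC3 were called too, with log2 fold changes of 1.46 and 1.25. The 3 members not called had positive values too. The atrial heavy chain MYH6 was at 1141 to 5785 CPM (median 4349) and then at 8517, 9922 and 8144 CPM. Its groups did not overlap, but its log2 fold change of 1.28 ± 0.41 missed the threshold (edgeR adjusted p 0.0516; 0.0011 to 0.404 over the alternatives). TTN, the giant spring of the sarcomere, was at 11277 to 26981 CPM and then at 34017, 34553 and 31206 CPM (log2 fold change 0.89, edgeR adjusted p 0.586). Its groups did not overlap, and it was called in 4 of 19 alternatives (adjusted p 0.00161 to 0.893 over the alternatives). Between clones cl4 and cl14 alone, 5 thick-filament genes rose with a median of 1.16, and without cl4_R3 of day 7.5 it was 6.

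**Figure D2:**
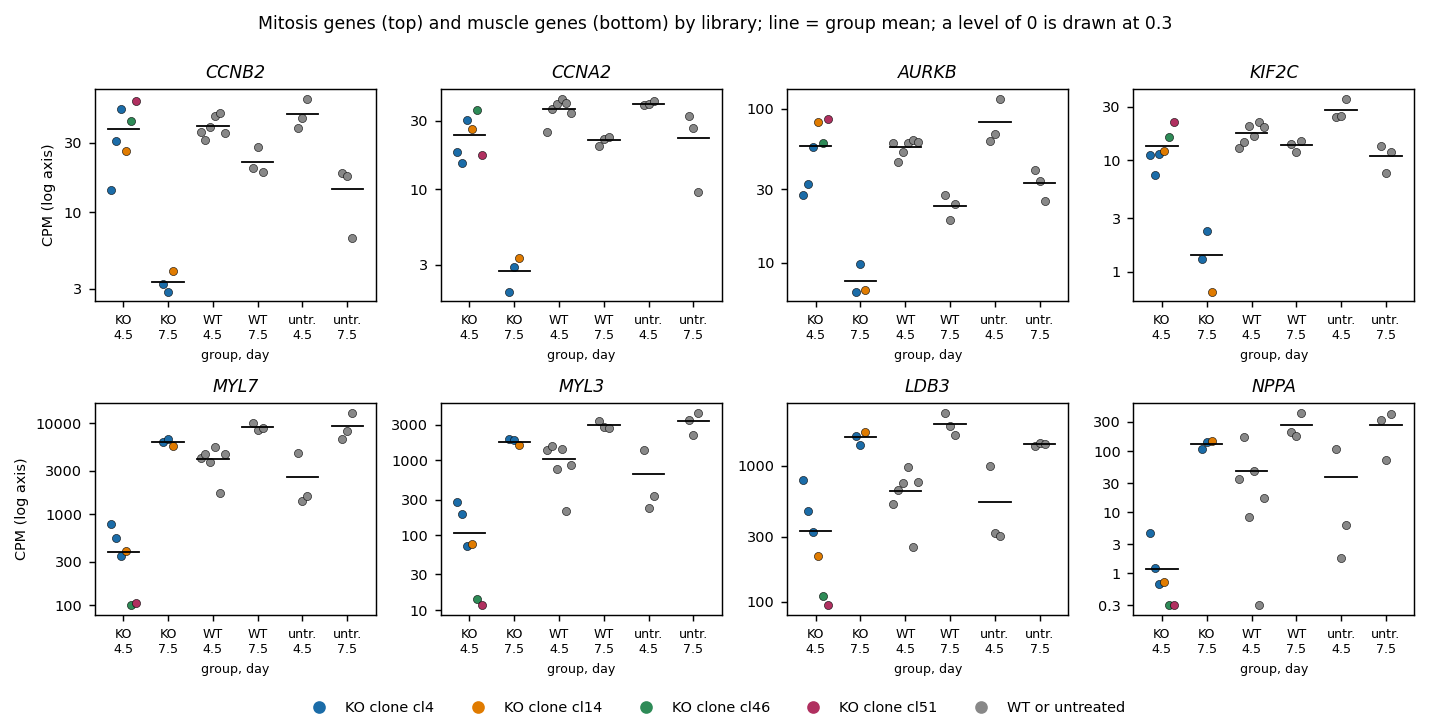
Expression in CPM (log axis, a level of 0 drawn at 0.3) of 4 cell-cycle genes (CCNB2, CCNA2, AURKB, KIF2C) and 4 muscle genes (MYL7, MYL3, LDB3, NPPA) in each library of the knockout (coloured by clone), wild-type and untreated groups (grey) at days 4.5 and 7.5, with lines at group means. In knockout libraries all 4 cell-cycle genes lie lower and all 4 muscle genes higher at day 7.5, without overlap.

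Among genes of the thin filament, which carries actin and the calcium-sensing troponins, 6 of 13 rose and none fell, with a median log2 fold change of 1.07. TNNI3, the cardiac inhibitory troponin, was at 1.08 to 40.6 CPM (median 26) at day 4.5 and at 102, 147 and 137 CPM at day 7.5 (log2 fold change 2.54 ± 0.61, edgeR adjusted p 0.0061). TNNC1, the calcium-binding troponin (chr3:52451102-52454070, − strand), was at 19.7 CPM in cl51_R1, 21 CPM in cl46_R1 and 106 to 289 CPM in the other 4 libraries, and then at 688, 620 and 575 CPM. Its log2 fold change was 2.34 ± 0.49 (edgeR adjusted p 0.00132; 0.107 when only the libraries compared were fitted). ACTA2, smooth muscle actin that early heart muscle also expresses, moved from 60.3 to 470 CPM (median 277) to 1192, 1206 and 1179 CPM. The 3 day 7.5 libraries were nearly equal, and the log2 fold change was 2.24 ± 0.46 (edgeR adjusted p 0.00106; 0.0553 when only the libraries compared were fitted).

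Cardiac actin ACTC1 was at 544 to 1949 CPM (median 1541) and then at 4662, 3602 and 3883 CPM, with a log2 fold change of 1.64 ± 0.44 (edgeR adjusted p 0.0169; call lost in 3 alternatives). The filament cap TMOD1 and the actin-binding NEXN rose by 1.70 and 1.07. The cardiac troponin TNNT2, a general marker of heart muscle, did not pass the test: it was at 1806 to 5108 CPM (median 3366) and at 5994, 5817 and 4959 CPM, and the groups overlapped (log2 fold change 0.80 ± 0.38, edgeR adjusted p 0.278). TNNT2 was called in 3 alternatives. In clones cl4 and cl14 alone, 4 thin-filament genes rose, with a median of 0.65.

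At the Z-disc, where thin filaments are anchored, and the costamere, which ties it to the membrane, 10 of 19 genes rose and none fell (median 1.51). MYOZ2, a Z-disc protein that binds calcineurin (chr4:119135784-119187789, + strand), was at 0 to 1.83 CPM, at most 3 counts, in every day 4.5 library and at 25.4, 6.33 and 18.6 CPM at day 7.5. Against a limit of 3 counts per library this was at least 9.26-fold higher. Such limits cover counting error only. FHL2, a LIM-domain partner of titin and of transcription factors (chr2:105357712-105438513, − strand), was at 53.3 and 44.6 CPM in cl4_R1 and cl4_R2 and 6.95 to 16.4 CPM in the other 4, and then at 293, 252 and 304 CPM. Its log2 fold change was 3.63 ± 0.52 (edgeR adjusted p 6.11e-06). LDB3, which binds actinin, was at 93.8 to 785 CPM (median 270), again lowest in cl46_R1 and cl51_R1, and then at 1669, 1414 and 1781 CPM (log2 fold change 2.31 ± 0.44, edgeR adjusted p 0.00037; 0.0624 when only the libraries compared were fitted). ACTN2, the sarcomeric actinin, moved from 34.7 to 151 CPM (median 93) to 342, 335 and 358 CPM (log2 fold change 1.95 ± 0.41, edgeR adjusted p 0.00132).

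The other called Z-disc genes were MYPN, TCAP, SMPX, XIRP1, CSRP3 and UNC45B, with log2 fold changes of 3.25, 2.13, 2.12, 2.08, 1.68 and 1.13. With clones cl4 and cl14 alone 7 Z-disc genes rose, with a median of 1.05. Within the 3 library names sampled on both days, the median change of thick-filament genes was 1.17 in cl4_R2, 1.59 in cl4_R3 and 1.32 in cl14_R1.

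The same windows before the RefSeq starts of FHL2 (chr2:105438514-105438663, − strand), MYOM1 (chr18:3219969-3220118, − strand) and MYOZ2 (chr4:119135682-119135831, + strand) follow, with CArG boxes and matches to the MEF2 consensus, the A- and T-rich letters bound by MEF2 factors, in capitals.

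FHL2: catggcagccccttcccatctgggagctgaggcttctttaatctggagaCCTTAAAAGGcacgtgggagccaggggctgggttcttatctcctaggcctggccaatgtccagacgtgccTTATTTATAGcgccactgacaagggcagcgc
MYOM1: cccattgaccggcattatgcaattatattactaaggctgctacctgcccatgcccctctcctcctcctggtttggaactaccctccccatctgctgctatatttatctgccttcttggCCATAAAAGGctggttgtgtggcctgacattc
MYOZ2: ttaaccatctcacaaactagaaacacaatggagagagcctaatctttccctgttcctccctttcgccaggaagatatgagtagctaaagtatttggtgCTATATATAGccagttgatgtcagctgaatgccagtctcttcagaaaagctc

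FHL2 holds 1 match of each kind, MYOM1 a CArG box and MYOZ2 a MEF2 match. Over the RefSeq promoters, 250 bases before to 50 after the start and read on both strands, 17 of the 25 called sarcomere genes had an entry. A CArG box stood in 5 of them (29.4%, against 1.29% of 27305 promoters), and the MEF2 consensus in 5 (29.4% against 3.09%). In all, 9 (52.9%) held either, against 4.33% of all promoters and 2.68% of those of the genes tested. These are letters in a window and not measured binding.

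Genes that handle calcium, which couples excitation to contraction, rose in 5 of 16 cases and fell in none (median 1.09). ASPH, whose locus also encodes the reticulum proteins junctin and junctate, was at 142 to 293 CPM (median 170) and then at 519, 425 and 477 CPM (log2 fold change 1.31 ± 0.25, edgeR adjusted p 0.000494). The L-type channel pore CACNA1C moved from 32.9 to 62.5 CPM (median 52) to 144, 122 and 140 CPM (log2 fold change 1.47 ± 0.32, edgeR adjusted p 0.00211). Its partner CACNB2 was at 3.77 to 36.1 CPM (median 15.1) and then at 74.8, 72.5 and 79 CPM (log2 fold change 2.10 ± 0.47, edgeR adjusted p 0.00304). None of the 3 overlapped between days. SRL and JPH1 rose by 1.96 and 1.48. RYR2, the calcium release channel, had non-overlapping groups, 501 to 1222 CPM and 1439, 1625 and 1508 CPM, but missed the threshold (log2 fold change 0.91, edgeR adjusted p 0.267), as did PLN, the brake on the calcium pump (0.67, edgeR adjusted p 0.322). Over the alternatives RYR2 was called in 4 and PLN in 2. Clones cl4 and cl14 alone gave 2 calcium genes that rose, and all alternatives between 2 and 12.

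Of 17 tested ion channel and conduction genes 3 rose and 1 fell. POPDC2, a cyclic-AMP-binding membrane protein, was at 0.539 to 17.3 CPM (median 6.32) and then at 67, 62.2 and 51.8 CPM (log2 fold change 3.08 ± 0.54, edgeR adjusted p 0.000124). KCNJ5, an inward rectifier potassium channel, was at 5.21 to 16.3 CPM and then at 39, 34.5 and 49.1 CPM (log2 fold change 1.93, edgeR adjusted p 0.00181). The gap junction genes parted: GJA5 was at 0 in 5 libraries and 1.42 CPM in cl14_R1, and then at 8.46, 1.73 and 9.29 CPM. By the mean of day 7.5 this was at least 3.59-fold higher, but cl4_R3 of day 7.5 was itself at the limit of 3 counts. GJA1 (chr6:121435577-121449727, + strand) went the other way, from 12.8 to 23.7 CPM (median 13.9) to 1.3, 4.03 and 5.97 CPM (log2 fold change −2.01 ± 0.37, edgeR adjusted p 0.000241).

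Among chamber and natriuretic genes 5 of 9 rose and none fell (median 2.46), and their summed level went from 31.2 to 212 CPM to 581 to 729 CPM. NPPA, the natriuretic peptide of atrial and trabecular muscle (chr1:11845709-11848345, − strand), was at 4.57 CPM in cl4_R1 and at most 1.22 CPM in the other 5 libraries of day 4.5. At day 7.5 it was at 107, 143 and 144 CPM, a log2 fold change of 6.66 ± 0.91 (edgeR adjusted p 2.25e-06), the highest of all genes eligible for naming. It overlaps CLCN6 on the other strand, and whether counting used strand is not given in the sources used here. ANKRD1, a titin-associated protein, moved from 7.53 to 28.2 CPM (median 13.6) to 143, 112 and 88.3 CPM (log2 fold change 2.90 ± 0.54, edgeR adjusted p 0.000292). Muscle creatine kinase CKM was at 1.16 to 20.8 CPM (median 9.68) and then at 114, 75.4 and 99.6 CPM (log2 fold change 3.28 ± 0.53, edgeR adjusted p 3.91e-05). CORIN, the protease that activates natriuretic peptides, rose by 3.09. The comparison of clones cl4 and cl14 alone also called 5 of these genes.

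Of 24 cardiac transcription factors 5 rose and 3 fell. PRDM16, a regulator of compact left-ventricular muscle (chr1:3069168-3438621, + strand), was at 2.03 to 4.98 CPM (median 2.69) and then at 44.3, 58.7 and 47.8 CPM, with a log2 fold change of 4.05 ± 0.43 (edgeR adjusted p 1.21e-08). IRX4, a ventricular factor, was at 0 to 13.2 CPM (median 4.41) and then at 60.5, 65.6 and 44.5 CPM (log2 fold change 3.53 ± 0.72, edgeR adjusted p 0.00104). HEY2, a compact-muscle factor, moved from 8.62 to 23.5 CPM to 43.6, 31.7 and 28.5 CPM (log2 fold change 1.38, edgeR adjusted p 0.0112; call lost in 2 alternatives). None of these 3 overlapped between days. ISL1, a factor of progenitors (chr5:51383391-51394738, + strand), fell from 48.2 to 197 CPM (median 130) to 20.2, 28.8 and 19.9 CPM (log2 fold change −2.35 ± 0.48, edgeR adjusted p 0.00108). GATA6 and HAND2 fell by 0.86 and 1.01 on the log2 scale, and each call was lost in 4 alternatives. In clones cl4 and cl14 alone 2 of these factors rose and 2 fell, and without cl4_R2, cl4_R3 or cl14_R1 of day 7.5 it was 2 and 1, 3 and 1, and 3 and 1. NKX2-5, a core cardiac factor, was at 242 to 646 CPM and at 563, 662 and 483 CPM and did not pass (log2 fold change 0.55, edgeR adjusted p 0.792). NKX2-5 was called in 2 alternatives.

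Genes of mitosis, in which the copied chromosomes are parted, were lower throughout the list. Of 44 tested 37 fell and none rose, all 44 fitted values were below 0, and the median log2 fold change was −2.31. With 3 members that sat at the limit of 3 counts set to their bounds, the median was −2.22. Summed over the list, the day 4.5 libraries held 1698 CPM in cl4_R1, 2126 in cl4_R2, 3273 in cl4_R3, 3539 in cl14_R1, 4085 in cl46_R1 and 4507 in cl51_R1. The 3 day 7.5 libraries held 541, 757 and 618 CPM, below all of these. The order of the day 4.5 libraries was nearly the reverse of that of the thick-filament sum, which was 32406 and 36079 CPM in cl4_R1 and cl4_R2 and 15176 and 13393 CPM in cl46_R1 and cl51_R1. Most of that thick-filament sum was TTN, which was not called in the main test.

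**Figure D3:**
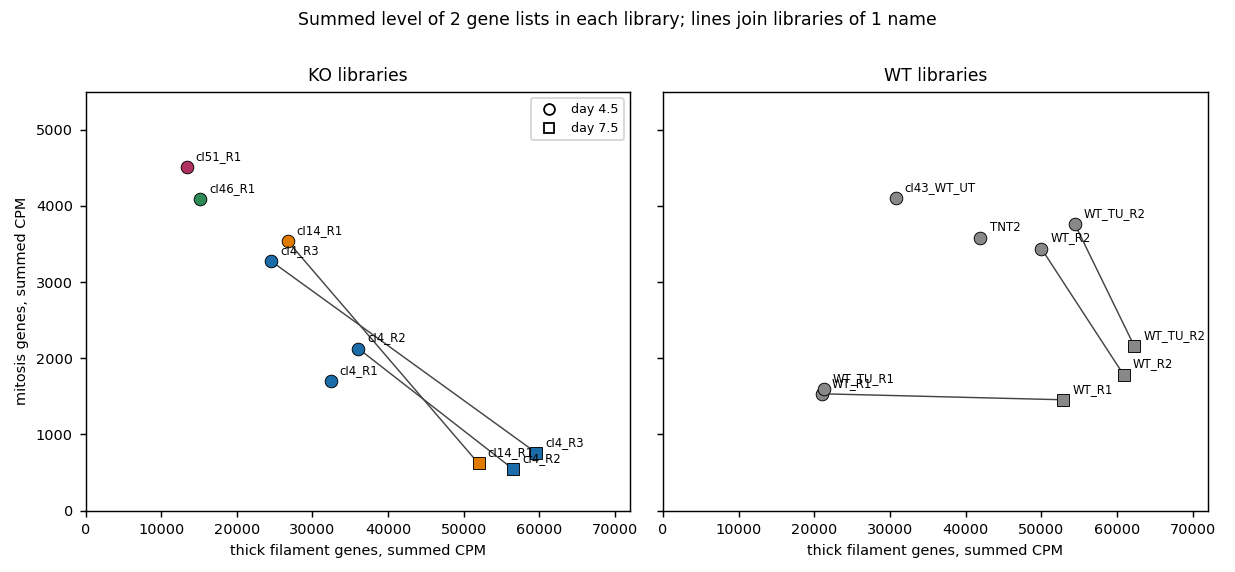
Summed CPM of the mitosis list (vertical axis) against summed CPM of the thick-filament list (horizontal axis) per library, in the knockout and the wild-type panel, with lines joining libraries of the same name on both days. Knockout libraries move from 1698 to 4507 CPM of mitosis genes at day 4.5 to 541 to 757 CPM at day 7.5, and wild-type libraries from 1533 to 4106 CPM to 1454 to 2157 CPM. In the knockout panel most of the thick-filament sum is TTN, which was not called in the main test.

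CCNB2, a cyclin that drives entry into mitosis (chr15:59105078-59125045, + strand), was at 14.2 to 57.3 CPM (median 36.3) at day 4.5 and at 3.25, 2.88 and 3.98 CPM at day 7.5. Its log2 fold change was −3.35 ± 0.35 (edgeR adjusted p 1.21e-08), and the groups were far apart. CCNA2, a cyclin of S phase and mitosis (chr4:121816444-121823933, − strand), was at 15.3 to 35.5 CPM (median 22.3) and then at 1.95, 2.88 and 3.32 CPM (log2 fold change −3.03 ± 0.27, edgeR adjusted p 7.2e-10). AURKB, a kinase of the chromosome passenger complex (chr17:8204733-8210600, − strand), moved from 27.4 to 86.3 CPM (median 58.4) to 6.51, 9.78 and 6.64 CPM (log2 fold change −2.81 ± 0.29, edgeR adjusted p 1.21e-08). CDC25C, the phosphatase that switches on CDK1 (chr5:138285265-138338355, − strand), was at 3.67 to 29 CPM (median 16.6) and then at 1 count in each library, at least 8.77-fold lower. KIF2C, a motor that corrects spindle attachments, was at 7.33 to 22 CPM (median 11.8) and then at 1.3, 2.3 and 0.664 CPM (log2 fold change −3.07 ± 0.37, edgeR adjusted p 2.79e-07).

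Further called members included UBE2C, SPC25, PTTG1, NDC80, BIRC5, CDCA8, CDK1, TPX2, KIF4A and ECT2, with log2 fold changes of −3.29, −3.21, −2.82, −2.77, −2.73, −2.38, −2.18, −2.14, −2.01 and −1.80. AURKA had the smallest change among those called, −0.97, and the 7 members not called were PRC1, ASPM, KIF15, BUB1, KIF18A, FAM83D and CDC25B. With clones cl4 and cl14 alone 25 mitosis genes fell (median −2.02), without cl4_R2 of day 7.5 it was 26, and within the third block of libraries alone it was 43. Within the names sampled on both days, 44 of 44 genes were lower in cl4_R2 (median −1.79), 44 in cl4_R3 (−1.96) and 42 in cl14_R1 (−2.24). These pairs set each clone against itself.

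Windows of 150 bases before the RefSeq starts of CCNB2 (chr15:59104996-59105145, + strand), CDCA8 (chr1:37692366-37692515, + strand), KIF4A (chrX:70289954-70290103, + strand) and ECT2 (chr3:172750576-172750725, + strand) are shown because each holds 2 short motifs. They were chosen among the called mitosis genes for holding both. Capitals mark TTTGAA, a core of the cell-cycle homology region element, and CCAAT, which reads ATTGG where it lies on the other strand.

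CCNB2: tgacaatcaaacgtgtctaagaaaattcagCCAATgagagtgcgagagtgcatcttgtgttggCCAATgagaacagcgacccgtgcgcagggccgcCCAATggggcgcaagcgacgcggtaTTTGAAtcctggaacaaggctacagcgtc
CDCA8: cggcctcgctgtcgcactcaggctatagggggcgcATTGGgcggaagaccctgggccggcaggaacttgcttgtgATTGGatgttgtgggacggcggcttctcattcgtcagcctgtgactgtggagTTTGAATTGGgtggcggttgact
KIF4A: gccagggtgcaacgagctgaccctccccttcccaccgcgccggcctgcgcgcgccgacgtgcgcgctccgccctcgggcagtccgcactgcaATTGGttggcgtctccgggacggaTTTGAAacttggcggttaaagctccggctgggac
ECT2: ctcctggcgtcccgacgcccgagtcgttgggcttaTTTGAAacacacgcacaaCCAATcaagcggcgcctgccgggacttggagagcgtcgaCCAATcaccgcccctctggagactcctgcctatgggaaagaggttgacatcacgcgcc

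CCNB2 and CDCA8 hold 3 CCAAT letters each, ECT2 2 and KIF4A 1, and in CDCA8 the last of them overlaps TTTGAA. Of the 37 called mitosis genes 32 had a promoter entry. TTTGAA stood in 23 of these (71.9%, against 15.4% of all promoters and 9.79% of those of the genes tested), CCAAT in 25 (78.1% against 35.7% of all), and both in 19 (59.4% against 6.08%).

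DNA replication genes fell in 13 of 43 cases and rose in none (median −0.97, or −0.85 with 3 members at their bounds), and their summed level went from 665 to 1205 CPM (median 942) to 474 to 541 CPM. MCM10, which helps load and start the replication machine (chr10:13161554-13211104, + strand), was at 9.14 to 27.8 CPM (median 15.2) and then at 1.3, 3.45 and 1.33 CPM (log2 fold change −2.94 ± 0.46, edgeR adjusted p 2.93e-05). DTL, part of a ubiquitin ligase that clears licensing factors (chr1:212035553-212107400, + strand), moved from 8.63 to 19.4 CPM to 1.95, 4.6 and 2.65 CPM (log2 fold change −2.16 ± 0.36, edgeR adjusted p 5.26e-05). MCM4, a subunit of the helicase, moved from 32.5 to 50.5 CPM to 9.76, 25.9 and 13.9 CPM (log2 fold change −1.19 ± 0.23, edgeR adjusted p 0.000551). All 3 genes had groups apart. CLSPN, GINS4, GINS1, CDC6, POLE and MCM3 fell by 2.02, 1.91, 1.78, 1.62, 1.06 and 0.71, beside CHAF1A, RFC2, RFC5 and MCM7. With clones cl4 and cl14 alone 10 fell, and without cl4_R2 of day 7.5, 7.

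The windows before DTL (chr1:212035598-212035747, + strand) and POLE (chr12:132687343-132687492, − strand) are shown for TTTGGCGC, a motif of E2F factors, in capitals. In POLE it lies on the other strand and reads GCGCCAAA.

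DTL: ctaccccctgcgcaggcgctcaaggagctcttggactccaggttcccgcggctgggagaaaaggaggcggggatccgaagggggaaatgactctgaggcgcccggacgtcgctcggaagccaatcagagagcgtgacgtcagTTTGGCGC
POLE: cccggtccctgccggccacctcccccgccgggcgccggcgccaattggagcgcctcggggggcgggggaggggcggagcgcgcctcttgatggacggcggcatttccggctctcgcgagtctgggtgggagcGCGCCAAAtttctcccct

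In DTL the motif ends at the base before the start. Of the 11 called replication genes with an entry, 4 held TTTGGCGC (36.4%, against 0.659% of all promoters), 2 held the related TTTCGCGC (18.2% against 0.546%), and 6 held either (54.5% against 1.18%).

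Of 16 tested G1 cyclins and CDK inhibitors, 1 rose and 1 fell, 6.25% each beside 3.21% and 3.01% of all genes tested. CCND2, a cyclin that opens the cell cycle (chr12:4273772-4305350, + strand), was at 91.7 to 256 CPM (median 137) and then at 46.9, 51.8 and 49.8 CPM (log2 fold change −1.56 ± 0.22, edgeR adjusted p 3.4e-06). CDKN1A, an inhibitor of cyclin-dependent kinases, was at 1.62 to 5.21 CPM (median 3.86) and then at 9.76, 10.9 and 9.29 CPM (log2 fold change 1.52 ± 0.42, edgeR adjusted p 0.02; 0.00789 to 0.096 over the alternatives). Both genes had groups apart.

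In the fibrillar and interstitial matrix 10 of 27 genes fell and 3 rose (median −0.88, or −0.64 with 2 members at their bounds). The summed level went from 8458 to 12848 CPM to 3643 to 4443 CPM. FN1, fibronectin (chr2:215360440-215436172, − strand), fell from 5127 to 7894 CPM (median 6839) to 968, 1424 and 1545 CPM (log2 fold change −2.25 ± 0.32, edgeR adjusted p 3.79e-06). FBLN1, fibulin, moved from 84.8 to 201 CPM to 20.8, 31.7 and 31.9 CPM (log2 fold change −2.35 ± 0.30, edgeR adjusted p 8.1e-07), and COL9A2 from 10.4 to 27.8 CPM to 0, 3.45 and 1.33 CPM. The groups were apart for all 3. THBS1, TNC, COL6A2, COL1A1, COL1A2 and COL6A1 fell by 1.85, 1.68, 1.57, 1.56, 1.44 and 1.34, and ELN, at 0.672 to 5.21 CPM and then at 0 in every library, was also called. COL1A2 lost its call with a term for the library name (edgeR adjusted p 0.0057 to 0.197 over the alternatives). With clones cl4 and cl14 alone 4 of the list fell, and without cl4_R2, cl14_R1 or cl4_R3 of day 7.5 it was 3, 5 or 6.

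Against this direction, FBN2, a fibrillin of the embryo, rose from 161 to 624 CPM (median 249) to 983, 879 and 921 CPM (edgeR adjusted p 0.000409; 0.0531 when only the libraries compared were fitted). LOXL2, which cross-links collagen, was at 16.4 to 30 CPM (median 20.9) and then at 65.7, 56.4 and 69.7 CPM (log2 fold change 1.53 ± 0.24, edgeR adjusted p 2.04e-05). POSTN, periostin of cushions and fibroblasts, was at 0 to 0.579 CPM and then at 15, 7.48 and 11.9 CPM, at least 6.33-fold higher. For each of the 3 the groups were apart.

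Of 17 tested basement membrane genes 6 rose, 1 fell and 10 were not called, with a median log2 fold change of 0.04 and 10 values above 0. LAMA2, the laminin chain of mature muscle (chr6:128883141-129516569, + strand), was at 0.712 to 7.94 CPM (median 2.77) and then at 67.7, 54.7 and 47.1 CPM (log2 fold change 3.99 ± 0.49, edgeR adjusted p 3.76e-07). LAMA4, of vessel and heart membranes, moved from 22.6 to 99 CPM to 294, 281 and 288 CPM (log2 fold change 2.64 ± 0.37, edgeR adjusted p 3.79e-06). The embryonic chain LAMA1 fell from 97 to 265 CPM (median 204) to 19.5, 34.5 and 30.5 CPM (log2 fold change −2.67 ± 0.41, edgeR adjusted p 2.09e-05). The laminin chains thus moved in opposite directions with no overlap in any of the 3. The perlecan gene HSPG2, FRAS1, LAMB2 and COL4A2 rose by 1.46, 0.99, 0.91 and 0.82. Without cl4_R2 or cl4_R3 of day 7.5, 3 rose.

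Of 18 tested genes of hyaluronan metabolism and binding 2 rose and 2 fell, with 12 values below 0 (median −0.31). ADAMTS9, a protease that cleaves versican, was at 124 to 257 CPM (median 223) and then at 554, 513 and 446 CPM (log2 fold change 1.31 ± 0.30, edgeR adjusted p 0.00318). UGP2, which makes the UDP-glucose that hyaluronan synthesis draws on, moved from 166 to 277 CPM to 350, 340 and 341 CPM (log2 fold change 0.75, edgeR adjusted p 0.0119; call lost in 4 alternatives). HAPLN1, which links hyaluronan to proteoglycans, fell from 276 to 643 CPM (median 460) to 140, 169 and 234 CPM (log2 fold change −1.26 ± 0.39, edgeR adjusted p 0.0422; 0.00784 to 0.227 over the alternatives, with the call lost in 9). HMMR, a hyaluronan-binding protein that also works at the mitotic spindle and is on the mitosis list too, fell by 2.30 (edgeR adjusted p 0.0338, call lost in 7). For all 4 genes the groups were apart. In clones cl4 and cl14 alone 1 gene of the list rose and none fell by edgeR.

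In each of the signalling lists most members were not called. The shares called were 5.26 to 20% higher and 5 to 10.5% lower, beside 3.21% and 3.01% of all genes tested. In lists this short, 1 gene of 19 is 5.26%. Of 20 genes on the WNT feedback list, which also includes ligands, 4 rose and 1 fell. Of its 20 values 13 were below 0 (median −0.18). WNT5B went from 6.46 to 26.9 CPM (median 10.8) to 95.7, 108 and 87.6 CPM (log2 fold change 2.80 ± 0.53, edgeR adjusted p 0.000426). The ligand WNT2 moved from 38.8 to 117 CPM to 253, 219 and 190 CPM (log2 fold change 1.76, edgeR adjusted p 8.08e-05). The secreted inhibitor SFRP5 (chr10:97766751-97771952, − strand) fell from 31.8 to 215 CPM (median 87.6), highest in cl46_R1 and cl51_R1, to 8.46, 3.45 and 11.9 CPM (log2 fold change −3.77 ± 0.54, edgeR adjusted p 5.26e-06). These 3 genes had groups apart, and RSPO3 and APCDD1 also rose.

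Of 19 genes on the BMP list, which includes a ligand and modulators beside targets, 1 rose and 2 fell. The called members were the ligand and modulators. The ligand BMP4 (chr14:53949736-53958761, − strand) was at 44.7 and 62.9 CPM in cl4_R1 and cl4_R2 and at 149 to 214 CPM in the other 4 libraries, and then at 25.4, 28.8 and 35.2 CPM (log2 fold change −2.16 ± 0.40, edgeR adjusted p 0.000285). BMPER, a modulator of BMP, fell by 1.09, and the BMP antagonist NOG rose by 2.02 with its call lost in 9 alternatives. Among FGF and ERK feedback genes 2 of 19 rose, the receptor antagonist IL17RD by 1.14 and ETV1 by 0.77, and PHLDA1 fell by 2.20, with overlapping groups for the last. The call of ETV1 was lost in 7 alternatives and that of PHLDA1 in 3. Of the 19 values of the FGF and ERK list 12 were below 0 (median −0.13). In the retinoid pathway 1 of 19 rose (TGM2, 1.92) and 2 fell, with 13 values below 0 (median −0.70). The retinal reductase DHRS3 was at 71.2 to 109 CPM and then at 19.5, 21.9 and 18.6 CPM, and CYP26A1, which clears retinoic acid, was at 4.98 to 20.1 CPM and then at most 3 counts, at least 6.87-fold lower. Among 18 YAP targets DLC1 and ANKRD1 rose and AMOTL1 fell. Calls were lost in 2 alternatives for TGM2 and in 4 each for CYP26A1 and AMOTL1.

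Some genes of earlier stages fell. Of 13 pluripotency genes 5 fell and none rose (median −1.54), and their sum went from 565 to 889 CPM to 211 to 241 CPM. LIN28A, an RNA-binding protein of early cells (chr1:26410778-26429722, + strand), was at 186 to 350 CPM (median 270) and then at 44.9, 57 and 53.8 CPM (log2 fold change −2.25 ± 0.31, edgeR adjusted p 2.25e-06). DPPA4 moved from 26.9 to 65.5 CPM to 9.11, 9.21 and 8.63 CPM (log2 fold change −2.27 ± 0.40, edgeR adjusted p 0.000127). The groups were apart for both. L1TD1, DNMT3B and ZFP42 were the other called members, the last at low counts. Of 18 early mesoderm and primitive streak genes 3 fell: the receptor PDGFRA from 335 to 486 CPM to 117, 71.4 and 97.6 CPM (log2 fold change −2.02 ± 0.29, edgeR adjusted p 5.89e-06), the apelin receptor APLNR by 2.48 and FOXH1 by 0.97.

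Markers of other cell types were examined for their level and direction. Of 13 tested liver-type secreted proteins 7 rose and 1 fell (median 1.72), and the list's sum went from 158 to 270 CPM (median 173) to 374 to 749 CPM (median 384). AFP (chr4:73431138-73456174, + strand), made by yolk sac and fetal liver, was at 0 to 4.7 CPM (median 0.645) and then at 24.7, 48.9 and 45.8 CPM (log2 fold change 5.14 ± 0.71, edgeR adjusted p 5.5e-06). APOB was at 16.7 to 37 CPM and then at 65.1, 199 and 89.6 CPM, and FGB at 0 to 11.4 CPM and then at 24.7, 76 and 27.9 CPM. In all 3 genes cl4_R3 held the highest day 7.5 level and the groups were apart. SERPINA1, FGA, TF and APOA1 also rose. Of the transcription factors of endoderm, the layer that gives rise to liver, 1 of 9 tested rose (PROX1, 1.23, call lost in 6 alternatives) and 1 fell (GATA3, −1.96). Their median log2 fold change was −1.13, with 8 values below 0 and 1 above. Their sum was 154 to 194 CPM and 115 to 177 CPM, and PDX1, NKX2-1 and NR1H4 were at 0 in all 9 libraries. The part of such cells in the results was not tested.

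None of 10 tested endothelial markers was called by edgeR, their sum was 220 to 492 CPM and 247 to 341 CPM, and the defining genes CDH5, CLDN5 and ROBO4 were at 3 counts or fewer in every library, with SOX18 at 0. Of 7 tested epicardial markers 2 fell, SFRP5 and KRT19, which are also on the WNT feedback and epithelial lists. The list's median log2 fold change was −0.16. The sum went from 249 to 703 CPM to 105 to 174 CPM, much of it from these 2 genes. UPK3B, UPK1B, MSLN and ITLN1 were at 3 counts or fewer throughout. Among epithelial markers 1 of 15 fell, KRT19, from 161 to 430 CPM to 60.5, 104 and 79 CPM, and the sum moved from 643 to 1347 CPM to 458 to 615 CPM. Of 16 smooth muscle and fibroblast markers 5 rose and 3 fell. TAGLN, ACTA2, TPM2, MYH11 and POSTN were higher, PDGFRA, COL1A1 and COL1A2 lower, and the sum went from 2386 to 2817 CPM to 3098 to 3279 CPM. In clones cl4 and cl14 alone 3 of these markers rose and 1 fell, without cl4_R3 of day 7.5 3 rose and 3 fell, without cl4_R2 4 and 1, and the list's median ran from −0.28 to 0.34 over the alternatives. Of 7 tested neural markers NES rose and OTX2 and TFAP2A fell (calls lost in 7 alternatives for NES and 4 for TFAP2A). The list's median log2 fold change was −1.23, with 5 values below 0. The sum was 522 to 1047 CPM and 1070 to 1180 CPM. Most of it was NES, at 416 to 974 CPM and then at 1139, 1153 and 1044 CPM. The defining genes SOX1, PAX6, FOXD3, NEUROD1 and TUBB3 were listed at 0 in all 9 libraries. Genes in wide use were also listed at 0 (CYP51A1, of sterol synthesis) or at 3 counts or fewer (ALDOA, of glycolysis), so a level of 0 in this table does not by itself show that a gene was silent.

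Few genes of energy metabolism were called. None of 72 respiratory chain genes was called by edgeR (median 0.09; 0 to 10 higher over the alternatives). Of 41 genes of the TCA cycle and fatty acid oxidation 2 rose: ETFB, which passes electrons from fatty acid oxidation to the chain, went from 84 to 134 CPM to 181, 205 and 180 CPM (log2 fold change 0.79, edgeR adjusted p 0.00343), and HADHB by 0.76 with its call lost in 9 alternatives. Of 35 genes of glycolysis and the hypoxia response 4 rose and 1 fell, and 32 had values above 0 (median 0.41). VEGFA moved from 95 to 171 CPM to 299, 234 and 228 CPM (log2 fold change 0.94, edgeR adjusted p 0.00908), PFKP, BNIP3 and ENO3 rose by 1.32, 1.30 and 0.91, and the lactate transporter SLC16A1 fell by 0.91. The calls of PFKP and BNIP3 were lost in 6 and 4 alternatives. In clones cl4 and cl14 alone none of this list was called by edgeR. None of 32 sterol and fatty acid synthesis genes was called in the knockout step. Of 26 stress response genes CDKN1A rose and PHGDH, which starts serine synthesis, fell, 3.85% in each direction. The 2 genes that rose on the TCA cycle and fatty acid oxidation list were 4.88% of it. Both shares were near those of all genes tested, 3.21% higher and 3.01% lower.

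Outside the lists, the genes with the largest changes were chosen by a rule of size. SORCS3, a sorting receptor of neurons, was at 0 to 1.42 CPM and then at 29.9, 17.8 and 31.2 CPM, at least 14.5-fold higher. LIPH, a phospholipase, was at 5.59 CPM in cl4_R1 and at most 0.712 CPM in the other 5, and then at 31.9, 46 and 37.8 CPM (log2 fold change 4.93 ± 0.77, edgeR adjusted p 2.61e-05). MLIP, a lamin-interacting protein of muscle, was at least 7.05-fold and KCNQ3, a potassium channel subunit, at least 6.77-fold higher. UNC5B-AS1, an antisense RNA that overlaps UNC5B, moved from 0 to 3.55 CPM to 43, 30.5 and 41.8 CPM.

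Among the lowest, TMSB15A, an actin-sequestering thymosin (chrX:102513676-102516784, − strand), was at 13.2 to 32.9 CPM (median 20) and then at 0, 0.576 and 1.33 CPM, at least 11.4-fold lower. PIF1, a DNA helicase, moved from 12.2 to 37.1 CPM (median 26.7) to 1.95, 2.88 and 0.664 CPM (log2 fold change −3.61 ± 0.42, edgeR adjusted p 9.76e-08). LRP2, an endocytic receptor, was at 10.2 to 49.2 CPM and then at 0, 2.3 and 1.33 CPM (log2 fold change −4.08 ± 0.69, edgeR adjusted p 0.000114). These 3 genes had groups apart. LYPD1 and PRRX2 were at least 11.7-fold and 5.72-fold lower, and VRTN went from 5.08 to 22.2 CPM to at most 1.33 CPM. PLAT fell by 3.51 and CBLN2 by 3.50, the first losing its call with clones cl4 and cl14 alone (edgeR adjusted p 0.0769), the other without cl4_R2 or cl14_R1 of day 7.5 or cl4_R3 of day 4.5 (0.00145 to 0.154 over the alternatives).

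The wild-type step over the same days, which shares no library with the knockout step, called 372 genes (2.7%), 173 higher and 199 lower. Of these, 218 were called in both steps, 25.4% of the knockout calls and 58.6% of the wild-type calls, and all 218 changed in the same direction. Of the 858 knockout calls 815 (95.0%) had the same sign in the wild type, against 66.8% of all genes. Across the 13797 genes the fitted log2 fold changes of the steps had a Pearson r of 0.54, given as a description since genes are not independent replicates. Wild-type members of the mitosis list fell in 6 of 44 cases (median −0.62), of DNA replication in none of 43 (−0.28) by edgeR, and of the thick filament rose in 2 of 12 (0.75). The wild-type libraries of the first block stood apart at day 4.5, with TTN at 3459 and 3527 CPM against 21834 to 34626 CPM in the other 4. Counts past a threshold in 1 step and not in the other do not show a difference, which was tested directly.

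**Figure D4:**
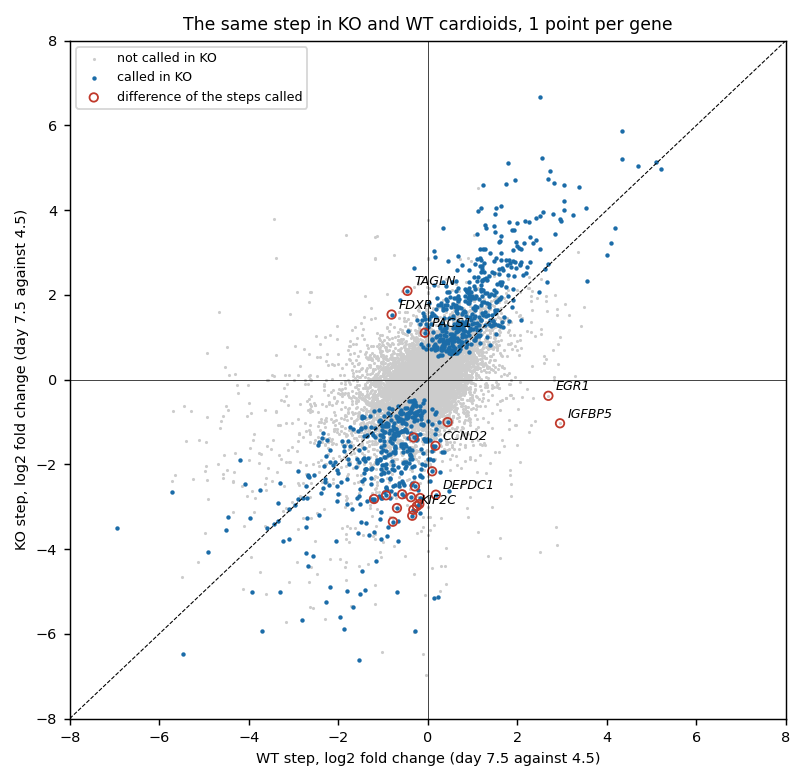
Log2 fold change from day 4.5 to day 7.5 in wild-type cardioids (horizontal axis) against that in HAS2-knockout cardioids (vertical axis) for every gene tested, with circles around genes whose difference between the steps passed the test. Most of the 22 circled genes lie below the diagonal, 19 with a more negative value in the knockout and 3 with a more positive one.

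The knockout step differed from the wild-type step in 22 of 13797 genes (0.159%; edgeR adjusted p under 0.05), 19 with a more negative and 3 with a more positive knockout value, and 653 genes had an unadjusted p under 0.05. Of the 19, 17 also fell in the knockout step, and 9 of the 22 were on the mitosis or DNA replication lists. Of all 44 mitosis genes 43 had a difference below 0 (median −1.62, against 0.02 over all genes) and 7 were called, and of 43 replication genes 38 (median −0.69) and 2. In the wild type the mitosis sum was 1533 to 4106 CPM (median 3507) and then 1454 to 2157 CPM, with overlapping groups. Within the wild-type names sampled on both days the list's median change was −0.17 in WT_R1, −0.88 in WT_R2 and −0.67 in WT_TU_R2.

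Among cell-cycle genes, CCNA2 was at 25 to 42.6 CPM (median 37.7) in the wild type at day 4.5 and at 20, 22.3 and 23.3 CPM at day 7.5, far above the 1.95 to 3.32 CPM of the knockout, and the steps differed by −2.34 ± 0.34 on the log2 scale (edgeR adjusted p 0.000345). CCNB2 was at 31.3 to 48.1 CPM and then at 20, 27.9 and 18.8 CPM in the wild type, a difference of −2.58 ± 0.44 (edgeR adjusted p 0.00138). KIF2C, at 12.8 to 21.8 CPM and then at 13.9, 11.9 and 14.9 CPM, differed by −2.75 ± 0.46 (edgeR adjusted p 0.00118), and CCND2, at 112 to 152 CPM and then at 163, 129 and 134 CPM, by −1.73 ± 0.29 (edgeR adjusted p 0.00118). For these 4 genes every wild-type day 7.5 library was above every knockout one. DEPDC1 and the kinetochore gene SPC25 differed by −2.90 ± 0.48 and −2.87 ± 0.55 (edgeR adjusted p 0.00118 and 0.0106). MCM10, CKAP2L, ARHGAP11A, NDC80, DTL, CENPH, NCAPG, BIRC5, PTTG1, USP49 and LMNB1 made up the others with a more negative value in the knockout, from −2.75 to −1.05, beside IGFBP5 and EGR1.

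IGFBP5, an insulin-like growth factor binding protein, was at 10.3 to 24.4 CPM and then at 74.4, 110 and 162 CPM in the wild type, while the knockout was at 2.44 to 85.1 CPM and then at 17.6, 16.1 and 17.3 CPM (difference −3.99 ± 0.82, edgeR adjusted p 0.0231). The highest knockout values at day 4.5 were those of cl46_R1 and cl51_R1. EGR1, an immediate early transcription factor, was at 17.9 to 61.9 CPM and then at 123, 230 and 230 CPM in the wild type and at 26.9 to 97.2 CPM and then at 28.6, 69.1 and 23.9 CPM in the knockout (difference −3.08 ± 0.66, edgeR adjusted p 0.026). The 3 genes with a more positive knockout step were TAGLN, FDXR and PACS1. TAGLN, a smooth muscle actin-binding protein, was at 4.98 to 13.7 CPM and then at 36.4, 35.7 and 27.9 CPM in the knockout, against 59.3 to 102 CPM and then 92.9, 50.9 and 51.7 CPM in the wild type (difference 2.55 ± 0.54, edgeR adjusted p 0.0253). FDXR, ferredoxin reductase of mitochondria, was at 14.5 to 30.9 CPM and then at 45.6, 83.5 and 71 CPM against 21.8 to 68.7 CPM and then 22.1, 20.9 and 36.2 CPM (difference 2.34 ± 0.49, edgeR adjusted p 0.0243). PACS1, a trafficking protein, differed by 1.17 ± 0.26 (edgeR adjusted p 0.0386). With a term for the library name 64 genes differed, 20 of them among the 22, and the calls of EGR1 and PACS1 were lost. Without the first block 62 genes differed, 19 of them among the 22, and when only the 18 libraries compared were fitted 2 did. At day 7.5 the wild-type libraries lay in the first and the second block and the knockout libraries in the second and the third, so block and genotype cannot be fully told apart. With the block as a term 129 genes differed.

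Against the untreated step of the enzyme arm, in which 592 of 14047 genes changed (4.21%), the knockout step differed in 7 genes (0.0498%), 5 with a more positive and 2 with a more negative value, and 968 genes had an unadjusted p under 0.05. CCNA2 and FDXR were called here as well, with differences of −2.33 ± 0.46 and 2.61 ± 0.54 (edgeR adjusted p 0.0165 and 0.0231). In untreated cardioids CCNA2 was at 38.2, 39.1 and 41 CPM at day 4.5 and at 32.1, 26.8 and 9.64 CPM at day 7.5. PIF1 was at 21.8, 16.9 and 33.4 CPM and then at 18.7, 7.66 and 24.5 CPM, and the steps differed by −3.19 ± 0.66 (edgeR adjusted p 0.0231). FDFT1, squalene synthase, fell in untreated cardioids from 422, 461 and 368 CPM to 112, 146 and 53.4 CPM, and stood at 193 to 264 CPM and then at 231, 121 and 151 CPM in the knockout. Its difference was 1.57 ± 0.30 (edgeR adjusted p 0.0133). Of 32 sterol and fatty acid synthesis genes 17 fell in the untreated step (median −1.23), 6 in the wild-type step (−0.68) and none in the knockout step (−0.30) by edgeR. For no member was the difference from the wild-type step called. The list's sum was already lower in the knockout at day 4.5, 3594 to 5643 CPM against 6892 to 9611 CPM in the wild type. At day 7.5 it was 2926 to 4014 CPM against 4731 to 5267 CPM. LOXL2 and GFPT2, which makes the amino sugar precursor of hyaluronan, had more positive steps in the knockout, by 2.27 ± 0.43 and 2.62 ± 0.57 (edgeR adjusted p 0.0133 and 0.0474). GFPT2 was at 7.12 to 22.9 CPM and then at 69, 48.9 and 63.7 CPM in the knockout, and at 47.1, 16.9 and 18.8 CPM and then at 18.7, 16.6 and 19.3 CPM untreated. Knockout calls had the same sign in the untreated step in 809 of 854 cases (94.7%). The untreated libraries of day 7.5 stood apart in quality measures: mitochondrial genes took 0.902, 1.05 and 2.39% of their counts against 0.365 to 0.616% in the knockout. PFN1, from a set of genes described in the next paragraph, was at 6.25 CPM in TNNI1_R1, 142 CPM in WT_R2 and 0 in TNNT2_R3, against 175 to 266 CPM in the untreated libraries of day 4.5. The part of these measures in the differences was not tested. The arms were separate experiments, so arm and genotype cannot be told apart here, and leaving out cl4_R2 of the knockout or TNNI1_R1 of the untreated group at day 7.5 left no gene called.

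The day 7.5 knockout libraries differed most among themselves in a set of genes that were low in cl4_R3. Of 4015 genes with a mean of at least 50 CPM there, 112 spanned more than 1 on the log2 scale, and the 10 widest, among them SLC25A5, CRABP2, PFN1 and ID3, were all lowest in cl4_R3. SLC25A5, a mitochondrial nucleotide carrier, was at 134, 19.6 and 85.6 CPM in cl4_R2, cl4_R3 and cl14_R1, a span of 2.71. PFN1, an actin-binding profilin, was at 205, 36.3 and 173 CPM, and CRABP2, which carries retinoic acid, at 200, 31.1 and 162 CPM. Over all 4015 genes, cl4_R3 was the lowest of the 3 libraries in 1397. In all 10 genes cl14_R1 was the lowest of the 6 libraries at day 4.5, with PFN1 at 22.8 CPM against 110 to 379 CPM. Low levels of these genes were not limited to knockout libraries. In the wild type at day 4.5, cl43_WT_UT was the lowest of 6, with PFN1 at 64.6 CPM against 167 to 674 CPM and SLC25A5 at 41.5 CPM against 83.2 to 376 CPM. In the untreated group at day 7.5, SLC25A5 was at 8.92 CPM in TNNI1_R1 and 4.45 CPM in TNNT2_R3 against 64.5 CPM in WT_R2. None of the 10 was called by edgeR between the days of the knockout.

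**Figure D5:**
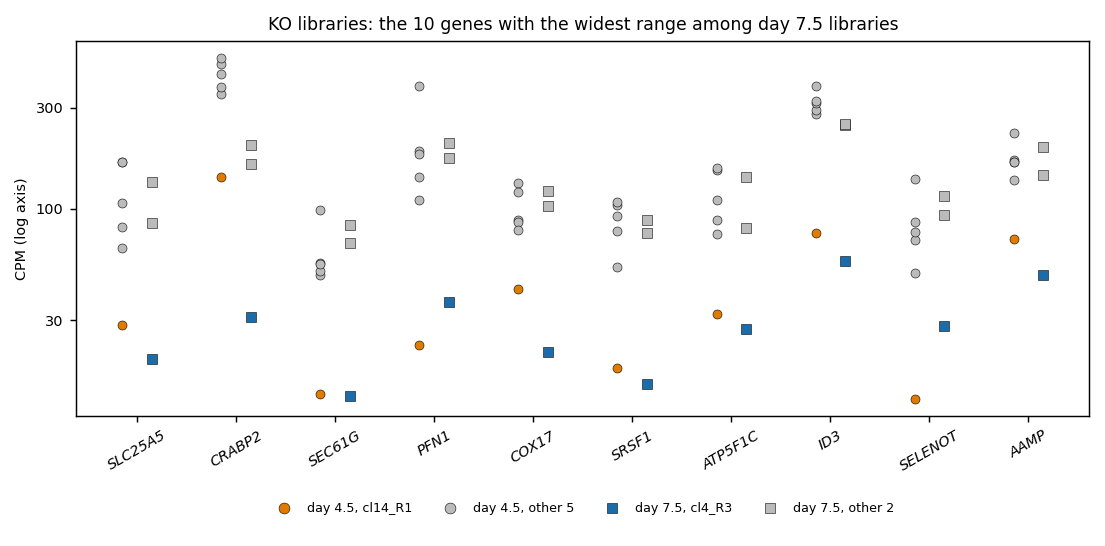
CPM (log axis) of the 10 genes with the widest range among the 3 knockout libraries of day 7.5, in each knockout library of both days (circles day 4.5, squares day 7.5, with cl14_R1 of day 4.5 in orange and cl4_R3 of day 7.5 in blue). In every gene cl4_R3 is the lowest at day 7.5 and cl14_R1 the lowest at day 4.5.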

How the data were processed

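RNA from pooled cardioids was sequenced as single-end QuantSeq 3′ FWD libraries, per the labels' protocols. The authors deposited whole-number counts per Ensembl gene, made with featureCounts (Subread 1.6.2) on hg38 (GRCh38), per the submitters' processing notes. The aligner, the strand setting, the treatment of reads with several matches and any use of molecular identifiers are not given in the sources used here. MYL3, MYH7B, ACTA2, TNNT2, FBN2, POPDC2, TF, LOXL2, TAGLN, CDC25C, CCNA2, SPC25 and LYPD1 overlap another gene in the annotation, and MYH6 and MYH7 are close copies, so their counts may include or miss shared reads. 3′ tags count transcripts and not bases, and each test compares the level of a gene between libraries. All 58735 gene IDs were found in GENCODE release 29 and 58207 had a current symbol. The table holds 4 columns of no listed sample, which were not used.

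Counts were fitted with edgeR 4.0.16 in R 4.3.3: TMM scaling, filterByExpr with a minimum count of 10, robust quasi-likelihood, and 1 mean per group over the 41 libraries of the genotype arm, or all 65 for the untreated step. Genes were called at a Benjamini-Hochberg adjusted p under 0.05, and differences between steps were contrasts in the same fit. SE is the absolute log2 fold change over the square root of F. The script was tested on simulated data. CPM are counts over the library total. A limit of 3 counts per library, on average 1.81 CPM at day 4.5 and 1.89 CPM at day 7.5, stands for a gene at or near 0, and fold bounds are taken against it. Alternatives were RLE scaling, DESeq2 1.42.0, no filter, only the libraries compared, block terms, fewer clones and each library left out.

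Library names recur on both days and mark the same clone, which is the pairing used for the replicate block; whether they also share a differentiation run is not given in the sources used here. Residuals of the same name correlated at 0.279 for cl4_R2, 0.0581 for cl4_R3 and −0.246 for cl14_R1 over 9288 genes, and cl4_R3 of day 7.5 correlated best with cl14_R1 of day 4.5 (0.516). The least different pair of libraries of a group differed at 2.2 times its degrees of freedom in a chi-square test, so no library was taken as deposited a second time; this does not show that libraries came from separate cultures.

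Genes named in the text were, for the knockout step, the 10 highest and 10 lowest log2 fold changes among called genes that changed by at least 1, reached a mean of 10 CPM and did not overlap between days. For each difference the 5 highest and 5 lowest called genes were named, for each list up to 3 called members per direction by adjusted p, and for spread the 10 widest genes above 50 CPM. HAS2 and heart muscle markers were always given, and further called members of lists were named after their values were seen. The comparison and the 32 lists (795 genes, 1 without an ID) were chosen with earlier results of these data known. Of the genes that these rules name or that the lists hold, 3 are not reported here. Promoter sequences are RefSeq's (GRCh38.p14), from 250 bases before to 50 after each start.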

Additional observations from a re-analysis of the deposited data

Results flagged for a closer look

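Among 133 genes examined in the 6 knockout libraries of day 4.5, 6 had a library far from the other 5. Chance alone flags about 1 in 20 groups, and 6 of 133 is no more than that. The measure is the gap to the nearest other library over the whole range. LIPH was highest in cl4_R1 (gap 0.731; 5.59 CPM against 0 to 0.712 CPM), GJA5 in cl14_R1 (gap 1; 1.42 CPM against 0) and TGM2 in cl4_R1 (gap 0.646; 34.5 CPM against 10.4 to 16.1 CPM). MYH7 was lowest in cl51_R1 (gap 0.704; 4.05 CPM against 9.16 to 12.1 CPM). CRABP2 and ID3 were lowest in cl14_R1 (gaps 0.735 and 0.87), at 142 CPM against 348 to 515 CPM and at 76.9 CPM against 280 to 379 CPM. Both were also lowest in cl4_R3 at day 7.5, and both were chosen for their wide range among the libraries of that day.

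The knockout step differed from the wild-type step, by edgeR's test of the difference, in TAGLN (2.55 on the log2 scale), FDXR (2.345), PACS1 (1.173), IGFBP5 (−3.986), EGR1 (−3.077), DEPDC1 (−2.896), SPC25 (−2.866) and KIF2C (−2.75). Over 25 alternatives PACS1 was called in 9, EGR1 in 16, IGFBP5 in 17, FDXR in 20, TAGLN and SPC25 in 21, and DEPDC1 and KIF2C in 24. It differed from the untreated step in PIF1 (−3.188), FDXR (2.608), GFPT2 (2.623), LOXL2 (2.27), FDFT1 (1.57) and CCNA2 (−2.326). Over 19 alternatives GFPT2 was called in 7, PIF1 in 10, FDXR in 12, and LOXL2 and FDFT1 in 13. The causes were not tested.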

How the results depend on the processing

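None of the called genes or counts reversed in direction. Values near 0 that were not called did change sign, among them the medians of the respiratory chain list (0.09, and −0.07 with clones cl4 and cl14 only) and of the basement membrane list (−0.02 to 0.31), and the knockout steps of IGFBP5 (−1.56 to 0.35), EGR1 (−1.02 to 0.14) and HAS2 (−0.26 to 0.04). Of the 133 genes chosen by the naming rule 112 were called in the knockout step; 73 of these were called in every alternative and 39 lost the call in at least 1. The number of knockout calls, 858 (443 higher, 415 lower), became 1451 (795, 656) when only the libraries compared were fitted, 1576 (783, 793) with the block of library numbers as a term, 1643 (806, 837) in the third block alone, 438 (215, 223) with clones cl4 and cl14 only and 2206 (1059, 1147) without the first block, the last chosen after seeing the data. Leaving out each library gave 448 to 903 calls, 252 to 457 higher and 196 to 446 lower; the 3 libraries of day 7.5, cl4_R2, cl4_R3 and cl14_R1, gave 448, 522 and 532. With the replicate block, a term for the library name, 1223 genes were called (787 of the 858), 629 of them lower, and 64 genes differed from the wild-type step. The 22 differences from the wild type became 35 with DESeq2, 2 when only the libraries compared were fitted, 129 with the block of library numbers as a term and 62 without the first block. Leaving out each library gave 9 (WT_R2 of day 7.5) to 28 (cl4_R1 of day 4.5); without WT_TU_R2 of day 7.5 it was 12, and without cl4_R2, cl4_R3 or cl14_R1 of day 7.5 it was 10, 11 and 14. The 7 differences from the untreated step became 74 with no filter on low counts and 0 by edgeR when only the libraries compared were fitted, where DESeq2 over all libraries called 8 and the main edgeR test had 968 at an unadjusted p under 0.05. Leaving out each library gave 0 to 56: 0 without cl4_R2 of day 7.5 or untreated TNNI1_R1 of day 7.5, 1 without TNNI1_R1 of day 4.5, 2 without TNNT2_R3 or cl14_R1 of day 7.5, 3 without cl4_R3 of day 7.5, 4 without cl46_R1, 17 without cl4_R1 and 56 without untreated WT_R2 of day 7.5. RLE scaling gave 859 knockout calls, DESeq2 1031 and no filter 629. The cause was not tested for any of these changes.

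At 1404837 to 1969113 counts a library, genes under 1.81 to 1.89 CPM on average rest on 3 counts or fewer, and a fold against them is a bound. Day 7.5 rests on 3 libraries of 2 clones, and the labels do not say whether libraries were made in the same run.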
